A study of Mus musculus with 12 samples.

Results

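Mitochondrial ribosomal protein genes were followed over days 0, 2, 4 and 6 in a culture of mouse embryonic stem (ES) cells. The members were all protein-coding rows of the count table whose symbol is Mrpl or Mrps followed by a number and at most 1 letter. There were 78 of them among the 55335 genes of the table, and all 78 had enough counts to be tested. Of these, 51 encode proteins of the large subunit and 26 proteins of the small subunit. The large subunit count holds Mrps18a and Mrps30, whose proteins sit there despite their symbols. The last, Mrps36, keeps a ribosomal symbol but encodes a subunit of the alpha-ketoglutarate dehydrogenase complex.

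The mitochondrial ribosome translates the few mRNAs of the mitochondrial genome, all of which encode subunits of the respiratory chain and ATP synthase. Its ribosomal RNAs are made inside the organelle, whereas all of its proteins are encoded in the nucleus, made in the cytosol and imported. Some of these proteins descend from bacterial ribosomal proteins and others exist in mitochondria only.

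Each day had 3 libraries of polyadenylated RNA from the cell line mESC, 12 in all. The labels describe 1 culture condition for every library, a medium with knockout serum replacement and leukaemia inhibitory factor, with irradiated embryonic fibroblasts as feeders on gelatin. They give no genotype and no agent, and what was changed from day 0 on is not given in the labels. Separate cultures are not stated for the replicates, so a p-value reflects how far the libraries of a day differ, and that spread may be technical. Total counts ran from 6945900 to 13266962 per library, and a member had between 932 and 25570 counts over the 12 libraries, with a median of 4934. Levels are counts per 1000000 counts of the library (CPM) after scaling of the libraries by the trimmed mean of M values (TMM). Fold changes are fitted log2 values ± SE from edgeR's quasi-likelihood test, and a gene was called when its Benjamini-Hochberg adjusted p over all genes tested (16468) was under 0.05.

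Markers of ES cells were high at day 0 and fell from there. All 10 core pluripotency markers were lower at days 2, 4 and 6 by edgeR's quasi-likelihood test, beside 33.2%, 36.1% and 37.5% of all genes tested. Nanog, a transcription factor of the pluripotent state, went from 276 ± 3.14 CPM at day 0 to 82.9 ± 2.96, 22.1 ± 1.83 and 8.68 ± 1.33 CPM (SD, n = 3). Of 15 fibroblast markers, which feeder cells could contribute, 13 were tested. At day 6, 10 were higher and 3 lower than at day 0, beside 39.4% and 37.5% of all genes tested. The summed level of the 15 markers was 1522 to 1542 CPM at day 0, 1056 to 1083 at day 2, 597 to 621 at day 4 and 768 to 803 at day 6. Fn1 made up most of that sum at day 0, at 1417 ± 11.99 CPM. Lum was at 0 in every day 0 library and Dcn averaged 0.169 CPM, but they do not stand for the rest of the list, which held the remainder of the sum. The part of these cells in the results on the members was not tested. In bulk libraries, fewer cells of a type and less RNA per cell cannot be told apart.

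The summed level of the members was lower on each later day. It was 4701 ± 61.7 CPM at day 0, 4271 ± 28.4 at day 2, 4176 ± 11.9 at day 4 and 3553 ± 83.5 at day 6 (SD, n = 3). No library of a day overlapped any library of another day in this sum. It was 90.9%, 88.8% and 75.6% of day 0 at days 2, 4 and 6. The sum over all genes tested, scaled alike, was at 91.2%, 91.6% and 93.0%. That sum is set by the TMM factors and is not a measured course of the genes. As a share of it, the members were lower mainly at day 6. By gene, the median log2 change at day 4 was already -0.15 for the members and 0.01 for all genes tested. As a share of raw counts the members held 0.4339 to 0.4495% at day 0 and 0.4301 to 0.4441% at day 2, which overlap. At day 6 the share was 0.3494 to 0.3646%. The large subunit genes summed to 76.6% and the small subunit genes to 73.5% of their day 0 level. The highest level was at day 0 in 41 members, at day 2 in 20, at day 4 in 15 and at day 6 in 2, and the lowest was at day 6 in 49. Over all genes tested, 29.0% had their highest mean at day 6 and 26.8% their lowest.

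**Figure D1:**
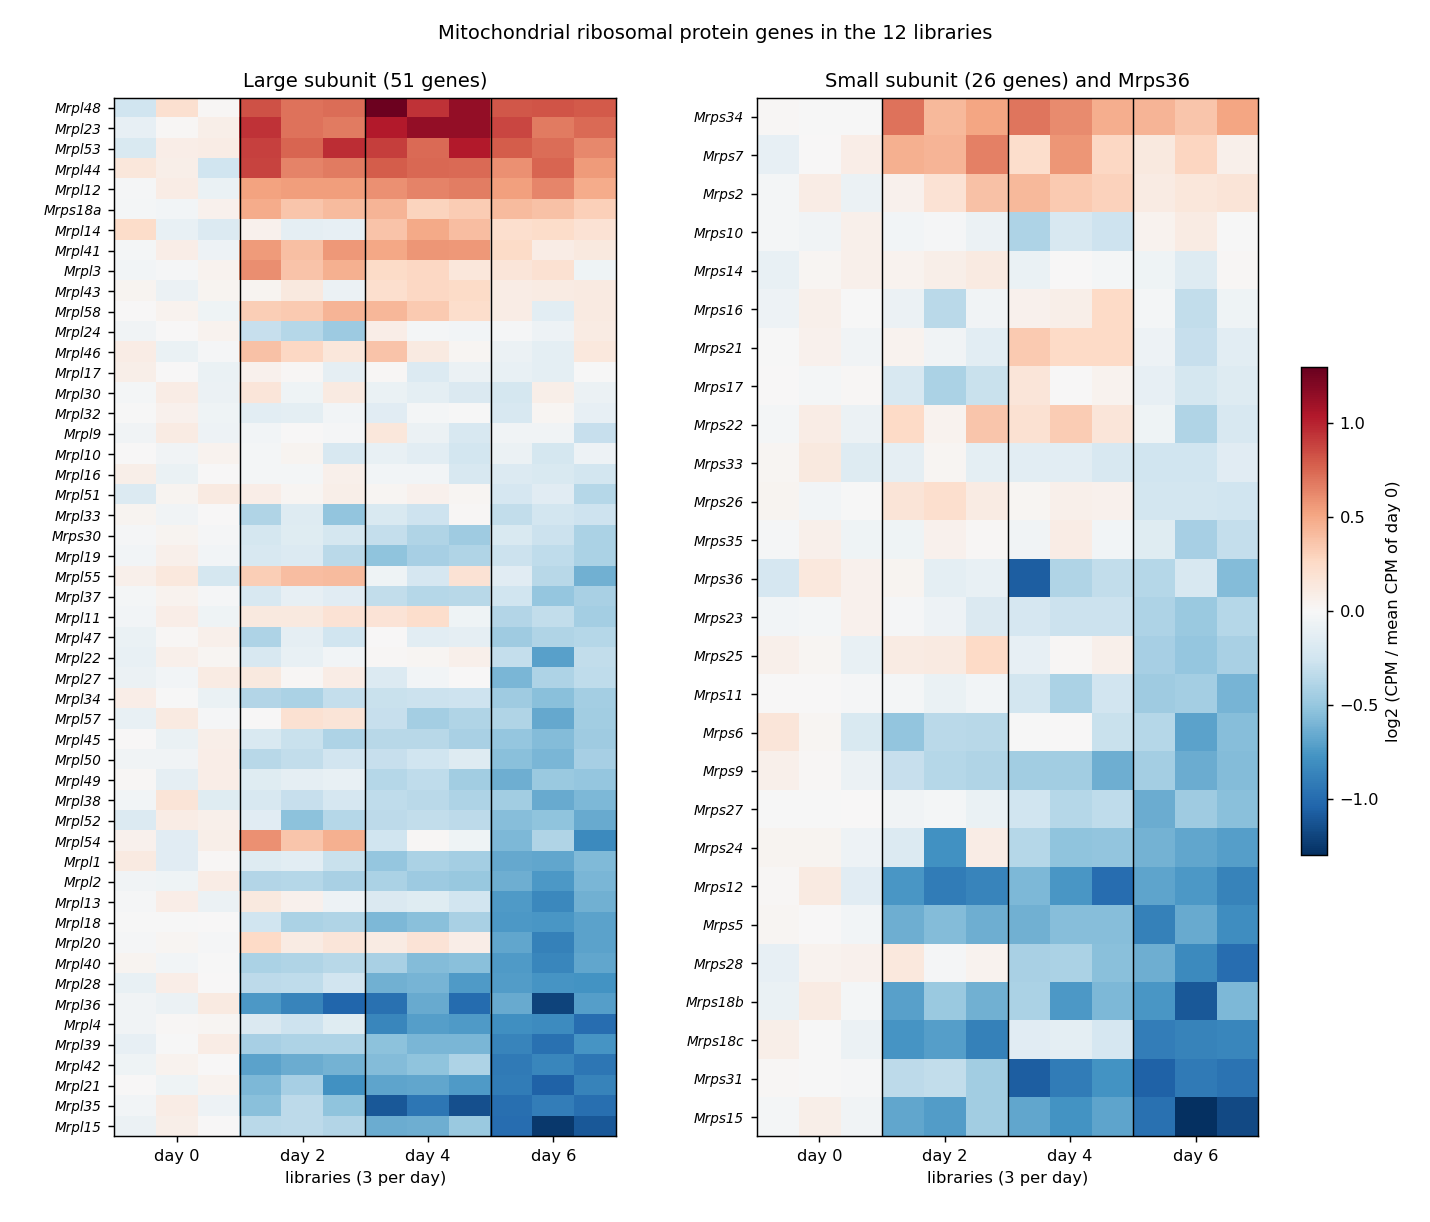
Heat map of the log2 ratio of each library's CPM to the mean CPM of day 0, for the 51 large subunit genes (left) and the 26 small subunit genes with Mrps36 (right). Columns are the 12 libraries by day, and rows are ordered by the fold change of day 6 against day 0. Blue (below day 0) fills most of the day 6 columns, while the rows at the top, from Mrpl48 and Mrps34 down, are red from day 2 on.

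By the F-test over the 4 days, 70 of the 78 members differed among days, beside 89.2% of all genes tested. The other 8 were Mrpl9, Mrpl10, Mrpl17, Mrpl30, Mrpl32, Mrps14, Mrps24 and Mrps33. Changes were mostly small. The median ratio of the highest to the lowest day mean was 1.45 for the members and 1.77 for all genes tested.

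The upstream sequences of some members with different courses are shown first. They do not represent all members with a given motif, whose counts follow below. The promoter table of RefSeq (GRCm38.p6), with 250 bases before and 50 after each start, held 75 promoters of 69 members. Motifs of factors known for nuclear genes of mitochondrial proteins were searched on both strands. Each line gives the 120 bases before the RefSeq start, 5′ to 3′ on the strand of the gene, with matches in capitals. Mrpl12 (chr11:120484517-120484636, plus strand) and Mrpl44 (chr1:79775898-79776017, plus strand), which were higher at days 2, 4 and 6 than at day 0, hold the motif of the factor NRF1.
Mrpl12: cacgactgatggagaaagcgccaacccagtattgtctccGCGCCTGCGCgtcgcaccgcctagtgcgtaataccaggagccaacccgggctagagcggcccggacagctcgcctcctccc
Mrpl44: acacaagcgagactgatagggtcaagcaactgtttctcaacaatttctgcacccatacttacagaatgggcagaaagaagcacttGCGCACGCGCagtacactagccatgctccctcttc

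Mrpl53 (chr6:83108988-83109107, plus strand) and Mrps18a (chr17:46110884-46111003, plus strand) were also higher on those days. Mrpl22 (chr11:58171544-58171663, plus strand) had the highest mean level per length over the 12 libraries and was lower at day 6 than at day 0 (log2 -0.43). All 3 hold the core motif of ETS factors, the family of GABP.
Mrpl53: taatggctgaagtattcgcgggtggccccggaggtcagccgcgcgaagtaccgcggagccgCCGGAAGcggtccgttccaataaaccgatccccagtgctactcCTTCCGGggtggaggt
Mrps18a: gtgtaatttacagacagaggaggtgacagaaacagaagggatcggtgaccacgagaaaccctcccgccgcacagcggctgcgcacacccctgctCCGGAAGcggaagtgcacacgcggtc
Mrpl22: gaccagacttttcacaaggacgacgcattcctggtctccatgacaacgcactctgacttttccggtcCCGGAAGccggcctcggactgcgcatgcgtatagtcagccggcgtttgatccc

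Mrpl36 (chr13:73330889-73331008, plus strand), which was lower from day 2 on, holds an E-box and a match to the YY1 motif. Mrps15 (chr4:126046808-126046927, plus strand), with the largest fall at day 6, holds none of these motifs in the window shown.
Mrpl36: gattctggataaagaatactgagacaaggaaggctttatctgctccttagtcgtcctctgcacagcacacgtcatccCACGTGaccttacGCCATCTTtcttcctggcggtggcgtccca
Mrps15: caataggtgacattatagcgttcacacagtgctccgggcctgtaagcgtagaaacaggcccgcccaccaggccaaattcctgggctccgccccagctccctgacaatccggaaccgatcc

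The ETS motif CCGGAAG was in 26 of the 75 member promoters (34.7%), beside 16.2% of the promoters of protein-coding genes tested and 8.86% of all promoters in the table. The YY1 motif AAGATGGC was in 12 (16.0%), beside 4.07% and 2.75%. The NRF1 motif, with 1 free base in the middle, was in 13 (17.3%), beside 9.27% and 4.6%, and 3 of these matches were its palindromic form, which the motif with the free base contains. The E-box CACGTG was in 7 promoters of 5 members (9.33%), beside 9.82% and 7.15%. At least 1 of the NRF1, ETS and YY1 motifs was in 57.3% of member promoters and in 26.4% of those of the tested protein-coding genes. These are matches of letters and not measured binding.

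Of the 69 members in the promoter table, 8 were higher and 46 lower at day 6 than at day 0, beside 39.4% and 37.5% of all genes tested. Members with the ETS, NRF1 or YY1 motif went both ways, and Mrpl23 and Mrpl41, which were higher at days 2, 4 and 6, hold none of the motifs. At day 6, 4 of the 26 members with the ETS motif were higher and 18 lower than at day 0, with a median log2 change of -0.26. Of the 13 with the NRF1 motif, 2 were higher and 6 lower, with a median of -0.12. Of the 12 with the YY1 motif, 1 was higher and 9 lower, with a median of -0.55. All 5 members with an E-box were lower, with a median of -0.74, and of 24 members with none of the motifs 2 were higher and 16 lower, with a median of -0.36. Differences between these groups were not tested.

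Among the factors themselves, Gabpa, the DNA-binding subunit of GABP, was lower at day 6 (114 ± 6.31 against 222 ± 11.3 CPM, log2 -0.96). Nrf1 was lower by less (45.9 ± 1.24 against 58.2 ± 1.46 CPM, log2 -0.35), and Yy1 was higher (253 ± 6.06 against 201 ± 9.26 CPM, log2 0.33). Mycn, whose protein binds E-boxes, dropped from 214 ± 3.85 CPM at day 0 to 42.0 ± 2.95 at day 2 and was at 114 ± 4.43 at day 6. Pprc1, a coactivator of NRF1, fell by 0.50 on the log2 scale at day 6. Ppargc1a, the coactivator PGC-1alpha, was higher by 4.6 on the log2 scale but reached only 4.30 ± 0.554 CPM. Of the 13 regulators listed, 3 were higher and 7 lower at day 6, beside 39.4% and 37.5% of all genes tested.

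Day 2 was compared with day 0 to ask which members moved first. Of the 78 members, 20 were higher and 31 lower at day 2, beside 34.9% and 33.2% of all genes tested (68.1% called in either direction). The median log2 change was -0.07 for the members and 0.02 for all genes tested. With library size alone in place of TMM, the log2 changes of all genes moved up by 0.13, the member counts became 29 higher and 24 lower, and the member median turned to 0.07. The called genes of the whole table were then 7053 higher and 4412 lower, instead of 5743 and 5473. In 50 of the 78 members the 3 libraries of each day did not overlap, beside 70.7% of all genes. At least 1.5-fold differences among called members numbered 4 up and 8 down (38.6% of all genes in either direction).

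Among the large subunit genes, 14 were higher and 22 lower at day 2 (27.5% and 43.1%), beside 34.9% and 33.2% of all genes tested. The largest rises were those of Mrpl53, Mrpl23, Mrpl48 and Mrpl44, and the largest falls those of Mrpl36 and Mrpl42. Mrpl53, a protein of mitochondria only, had 9.95, 12.1 and 12.2 CPM at day 0 and 21.1, 19.3 and 22.1 CPM at day 2 (log2 0.88 ± 0.11, adjusted p = 2.46e-09). Mrpl44, which has a ribonuclease III-like fold, had 26.9, 25.7 and 20.4 CPM at day 0 and 44.9, 38.0 and 38.8 CPM at day 2 (log2 0.74 ± 0.09). In both genes every day 2 library lay above every day 0 library. Mrpl36, the member homologous to the smallest bacterial large subunit protein, had 11.5, 11.3 and 12.9 CPM at day 0 and 7.12, 6.59 and 5.82 CPM at day 2 (log2 -0.86 ± 0.14), with no overlap.

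Among the small subunit genes, 6 were higher and 9 lower at day 2 (23.1% and 34.6%), beside 34.9% and 33.2% of all genes tested. The share that fell was thus near that of all genes. Mrps12, whose bacterial homolog lines the decoding centre, had 30.3, 32.6 and 27.1 CPM at day 0 and 17.7, 16.0 and 16.6 CPM at day 2. Its level then stayed near there, at 17.6 ± 2.498 CPM at day 4 and 17.6 ± 1.16 CPM at day 6, and neither later step passed the test. Mrps5, a homolog of a bacterial protein at the mRNA entry site, was at 214 ± 4.55 CPM at day 0 and 140 ± 4.04 CPM at day 2 (log2 -0.61 ± 0.05). Mrps34, a small subunit protein of mitochondria only, was higher, with 39.2, 38.5 and 38.5 CPM at day 0 and 63.3, 51.7 and 55.2 CPM at day 2 (log2 0.55 ± 0.07). Mrps24 was uneven between replicates, with 43.1, 28.1 and 52.1 CPM at day 2, and was not called.

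At day 4, 16 members were higher and 36 lower than at day 0, beside 37.5% and 36.1% of all genes tested (73.6% called). The median log2 change of the members was -0.15, and that of all genes tested 0.01. With library size alone, which moved all genes up by 0.13, the counts were 23 higher and 30 lower and the median -0.02. Called differences of at least 1.5-fold numbered 6 up and 9 down among members (47% of all genes in either direction). Libraries of the 2 days did not overlap in 56 members, beside 75.2% of all genes.

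Called differences of 2-fold or more from day 0 numbered 2 up and 1 down among members at day 4, beside 16.5% up and 13.1% down of all genes tested. Mrpl48, a protein of the central protuberance of the large subunit, had 9.72, 13.5 and 11.8 CPM at day 0 and 28.3, 22.4 and 25.7 CPM at day 4 (log2 1.13 ± 0.11, adjusted p = 6.24e-12). Mrpl23, whose bacterial homolog sits at the exit of the peptide tunnel, had 16.4, 17.9 and 18.6 CPM at day 0 and 36.0, 39.0 and 38.8 CPM at day 4 (log2 1.11 ± 0.09, adjusted p = 6.15e-14). Mrpl35, a large subunit protein with a bacterial homolog, had 39.4, 43.1 and 38.7 CPM at day 0 and 18.9, 21.1 and 18.3 CPM at day 4 (log2 -1.05 ± 0.08). The day 4 libraries of each of these genes lay outside the range of day 0.

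Mrps31, a small subunit protein of mitochondria only, went from 60.7, 59.9 and 59.5 CPM at day 0 to 28.7, 31.99 and 35.1 CPM at day 4 (log2 -0.92 ± 0.07). Mrpl4, a homolog of a bacterial large subunit protein, was at 41.7 ± 1.02 CPM at day 0 and 24.5 ± 1.23 CPM at day 4 (log2 -0.77 ± 0.08). Neither gene passed the test from day 4 to day 6.

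**Figure D2:**
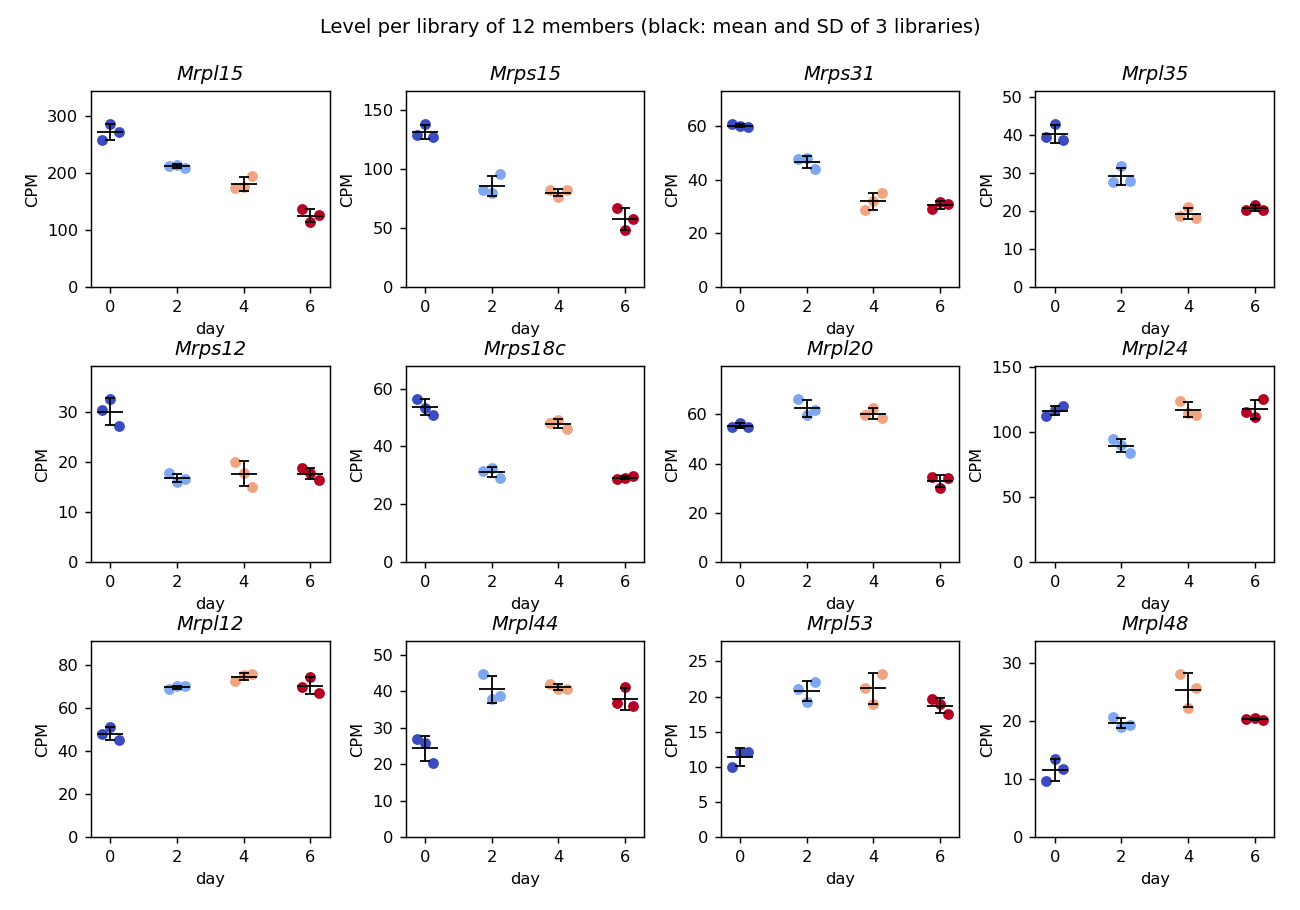
CPM of 12 members in each library against day, with points for the 3 libraries of a day and the mean and SD in black. Mrpl15 steps down at every day, Mrpl20 falls only after day 4, Mrps18c falls, recovers and falls again, and the bottom row (Mrpl12, Mrpl44, Mrpl53, Mrpl48) is above its day 0 level from day 2 on.

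At day 6, 9 members were higher and 54 lower than at day 0, beside 39.4% and 37.5% of all genes tested (76.9% called). The median log2 change of the members was -0.39, against 0.02 for all genes tested. Among the 9680 tested genes whose mean level lay within the range of the members, from 7.91 to 212 CPM, 43.0% were higher and 38.6% lower, with a median of 0.04. With library size alone, which moved all genes up by 0.10, the member counts were 15 higher and 46 lower and the median -0.29. Called differences of at least 1.5-fold numbered 4 up and 23 down (50.6% of all genes in either direction), and libraries did not overlap in 60 members (78.3% of all genes).

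In the large subunit 8 genes were higher and 33 lower at day 6 (15.7% and 64.7%), beside 39.4% and 37.5% of all genes tested. The median log2 change was -0.38. Mrpl15 (ENSMUSG00000033845, chromosome 1, 4773206 to 4785739, minus strand, GRCm38), a homolog of a bacterial protein of the large subunit core, had 257, 286 and 272 CPM at day 0. It had 213, 215 and 209 CPM at day 2, 173, 175 and 194 at day 4, and 137, 114 and 126 at day 6. The ranges of the 4 days did not overlap, and each step down was called (day 6 against day 0 log2 -1.11 ± 0.06, adjusted p = 1.22e-18). Mrpl42, of mitochondria only, was at 191 ± 7.21 CPM at day 0 and 102 ± 3.17 at day 6 (log2 -0.90 ± 0.05). Mrpl39, which resembles a threonyl-tRNA synthetase, fell by 0.86 on the log2 scale, and Mrpl21, with a bacterial homolog, by 0.94.

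In the small subunit 1 gene, Mrps34, was higher and 20 were lower at day 6 (3.85% and 76.9%), beside 39.4% and 37.5% of all genes tested. The median log2 change was -0.43. Mrps15, whose bacterial homolog binds the small subunit rRNA early in assembly, had the largest fall, from 129, 138 and 127 CPM at day 0 to 67.0, 48.1 and 58.0 CPM at day 6 (log2 -1.17 ± 0.10, adjusted p = 5.95e-07). Mrps31 was at 30.5 ± 1.38 CPM, against 60.0 ± 0.615 at day 0 (log2 -0.98 ± 0.07). The day 6 libraries of both genes lay below all day 0 libraries. Mrps15 and Mrpl15 were the members that fell 2-fold or more, beside 13.8% of all genes tested.

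Members of either origin were lower on balance at day 6. Of 46 with a bacterial homolog, 2 were higher and 31 lower, with a median log2 change of -0.42. Of 31 counted as found in mitochondria only, 7 were higher and 22 lower, with a median of -0.38. Of all genes tested, 39.4% were higher and 37.5% lower at day 6. At day 2 the members with a bacterial homolog had 8 higher and 21 lower (17.4% and 45.7%). Those of mitochondria only had 12 higher and 10 lower (38.7% and 32.3%), near the 34.9% and 33.2% of all genes tested. The difference between the groups was not tested.

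**Figure D3:**
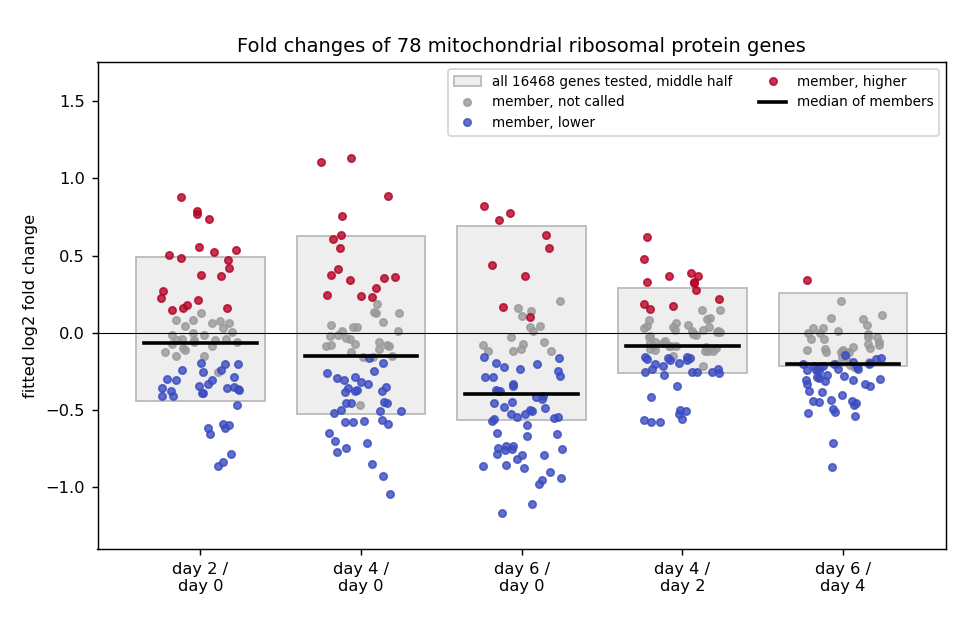
Fitted log2 fold change of each of the 78 members in the 5 comparisons, with called members in red (higher) and blue (lower), others in grey and the member median as a black line. Grey boxes span the middle 50% of all 16468 genes tested, and the member median goes from -0.07 at day 2 to -0.39 at day 6 against day 0.

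A group of 26 members was called lower at days 2, 4 and 6 alike, and 8 were called higher on all 3 days, beside 24.8% and 25.4% of all genes tested. These 3 comparisons share their day 0 libraries. The 8 were Mrpl12, Mrpl23, Mrpl41, Mrpl44, Mrpl48, Mrpl53, Mrps18a and Mrps34. Mrpl12, which forms the stalk that recruits translation factors, had 47.8, 51.3 and 45.3 CPM at day 0 and 69.9, 74.6 and 67.1 CPM at day 6 (log2 0.55 ± 0.06, adjusted p = 9.79e-11). Its stalk partner Mrpl10 did not pass the F-test, with 51.4 ± 1.58 CPM at day 0 and 47.2 ± 2.90 CPM at day 6 (log2 -0.12 ± 0.07).

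At day 6 the log2 rise over day 0 was 0.82 ± 0.11 for Mrpl48, 0.78 ± 0.09 for Mrpl23, 0.73 ± 0.11 for Mrpl53, 0.63 ± 0.09 for Mrpl44, and 0.44 ± 0.07 for Mrps34. Mrpl41, of mitochondria only, was higher by 0.50 at day 2 and 0.55 at day 4 but by 0.17 at day 6. All of these genes were called in each comparison with day 0.

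Several of these values depend on how reads were shared between genes. The table also counts Mrpl48-ps, a processed pseudogene 98.1% identical to Mrpl48 over 636 bases, which had 1455 counts to 2368 of Mrpl48. It was higher by 0.57 at day 6 (log2). Mrpl23-ps1, identical to Mrpl23 over 540 bases, had 514 counts to 3563 and was higher by 1.04. The exons of Mrpl53 are overlapped on the same strand over 88% of their length by Gm42688, and those of Mrps34 over 37.0% by Nme3 and on the opposite strand over 63.4% by Mapk8ip3. Whether counting used strand is not given in the sources used here, so these values are uncertain.

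Of the 78 members, 20 had at least 1 such near copy, with at least 95% identity over 250 aligned bases. Besides those named, the copies with the most counts relative to their member were Gm18736 of Mrps10 (25.9%) and Gm13328 of Mrps5 (12.7%). Exons of 28 members are overlapped on the opposite strand by another gene. Besides Mrps34, the longest of these overlaps were in Mrps25 by Nr2c2 (69.8% of exon length), Mrpl19 by Gcfc2 (36.0%) and Mrpl43 by Twnk (33.4%). Mrps18b by Gm16279 (30.5%) and Mrpl24 by Rrnad1 (26.3%) followed. Values of these members are uncertain if counting did not use strand. Exons of 8 members are overlapped on the same strand. Besides Mrpl53 and Mrps34, the longest such overlaps were those of Mrps6 by Slc5a3 and Gm49711 (30.3% of its exon length), Mrps18c by Gm43511 (23.2%) and Mrps24 by Urgcp (15.4%), and these values are uncertain too.

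From day 2 to day 4, 13 members were higher and 27 lower, beside 25.3% and 24.8% of all genes tested (50.1% called). The median log2 change was -0.08 for the members and 0.00 for all genes tested. Libraries did not overlap in 47 members (55.7% of all genes). Mrps18c, a member homologous to bacterial S18, had the largest rise, from 31.5, 32.6 and 29.2 to 48.2, 49.1 and 46.1 CPM (log2 0.62 ± 0.07), and was the 1 called member past 1.5-fold (19.2% of all genes). Mrpl14 rose by 0.47 ± 0.12, Mrpl24 by 0.39 ± 0.05 and Mrps17 by 0.37 ± 0.07. The largest falls were those of Mrpl35 (log2 -0.58 ± 0.08), Mrpl54 (-0.58 ± 0.09), Mrpl4 (-0.56 ± 0.07) and Mrps31 (-0.56 ± 0.07).

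From day 4 to day 6, 1 member was higher and 43 were lower, beside 23.6% and 19.3% of all genes tested (42.9% called). The median log2 change was -0.20 for the members and 0.02 for all genes tested, and libraries did not overlap in 46 members (50.7% of all genes). Mrpl20, whose bacterial homolog is needed early in large subunit assembly, had 54.8, 56.5 and 54.9 CPM at day 0, stayed at 59.7 to 66.4 CPM at day 2 and 58.6 to 62.7 at day 4, and then dropped to 34.6, 30.0 and 34.3 CPM at day 6. Day 6 lay below every other library of the gene (log2 -0.87 ± 0.07 against day 4, adjusted p = 4.87e-14). Mrps18c also passed 1.5-fold (13.4% of all genes), with log2 -0.71 ± 0.07, followed by Mrpl13 (-0.54 ± 0.07) and Mrpl15 (-0.52 ± 0.06).

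The rising member was Mrps10, at 42.7 ± 2.78 CPM at day 4 and 54.0 ± 2.08 CPM at day 6 (log2 0.34 ± 0.06, adjusted p = 2.6e-05). It was at 52.3 ± 2.27 CPM at day 0, so the day 4 libraries, at 39.7 to 45.2 CPM, were the low ones. The pseudogene Gm18736, which is 97.9% identical to Mrps10 over 573 bases, had 14.1 ± 2.20 CPM at day 0, 10.6 ± 1.34 at day 4 and 14.7 ± 0.986 at day 6.

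Called steps down, up and down again from day to day were seen in 5 members, Mrpl42, Mrpl47, Mrps6, Mrps17 and Mrps18c, beside 1.62% of all genes tested. Mrps18c, whose exons Gm43511 overlaps in part, had the widest swing, with means of 53.5 ± 2.83, 31.1 ± 1.72, 47.8 ± 1.51 and 29.25 ± 0.507 CPM at days 0, 2, 4 and 6. No library of day 2 or 6 overlapped with day 0 or 4. Mrpl24, which like Mrpl23 has its bacterial homolog near the tunnel exit, was low at day 2, at 94.7, 90.2 and 84.4 CPM, while all libraries of the other days held 112 to 126 CPM.

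The 3 genes of the Mrps18 family, each related in sequence to bacterial S18, took different courses. In the naming of mitochondrial ribosomal proteins Mrps18c alone keeps the bacterial name, and Mrps18a and Mrps18b are counted above with the proteins of mitochondria only. Mrps18a, of the large subunit, had 37.8, 37.5 and 39.9 CPM at day 0 and 50.9, 50.01 and 47.6 CPM at day 6 (log2 0.37 ± 0.07). Mrps18b, of the small subunit, had 16.2, 18.5 and 17.0 CPM at day 0 and 10.2, 7.99 and 11.5 CPM at day 6 (log2 -0.79 ± 0.12). Mrps18c was lower at day 6 by 0.88 ± 0.07. In each gene the 2 days did not overlap, and the differences between the genes were not tested.

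Other members have a role of their own. Mrpl45, which holds the ribosome at the inner membrane, was at 59.1 ± 3.50 CPM at day 0 and 41.6 ± 1.52 at day 6 (log2 -0.51 ± 0.06). Mrpl58, a peptidyl-tRNA hydrolase that frees stalled ribosomes, was higher at day 2 (log2 0.36 ± 0.06) and day 4 (0.34 ± 0.07) and had a log2 difference of 0.04 ± 0.07 at day 6. Mrps30 was lower on all 3 days, by 0.29 ± 0.06 at day 6. Mrps36, of the dehydrogenase complex, was lower at day 6 by 0.37 ± 0.14 (adjusted p = 0.0149), and its call was lost without replicate 2 or 3 of day 0 or replicate 3 of day 6, with adjusted p = 0.0797, 0.0566 and 0.0749 by edgeR's quasi-likelihood test.

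Levels between genes were compared per kilobase of exon, since a longer transcript gives more reads. The median member had 17.1 CPM per kilobase over the 12 libraries, and the highest was 71.4-fold above the lowest. Mrpl22, which lines the peptide tunnel, had the highest mean over all libraries, at 169 CPM per kilobase (113 to 191 over libraries), followed by Mrpl43 at 139 (123 to 157) and Mrps21 at 104 (82.3 to 129). The lowest were Mrps35 at 4.41 CPM per kilobase (3.42 to 4.94), Mrpl3 at 3.86 (3.20 to 5.06) and Mrpl48 at 2.37 (1.19 to 3.47). The ranges of Mrpl22 and Mrpl43 overlapped, as did those of Mrpl43 and Mrps21, those of Mrps35 and Mrpl3, and those of Mrpl3 and Mrpl48. These ranges pool all days. Within every single library, Mrpl43 was above Mrps21 and Mrpl3 above Mrpl48. By day, Mrpl22 was above Mrpl43 at days 0, 2 and 4, but at day 6 Mrpl43 had 140 and Mrpl22 136 CPM per kilobase. The lengths are unions of all annotated exons, so a gene with long alternative exons, such as Mrpl48 with 8152 bases, has a lower value per kilobase.

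**Figure D4:**
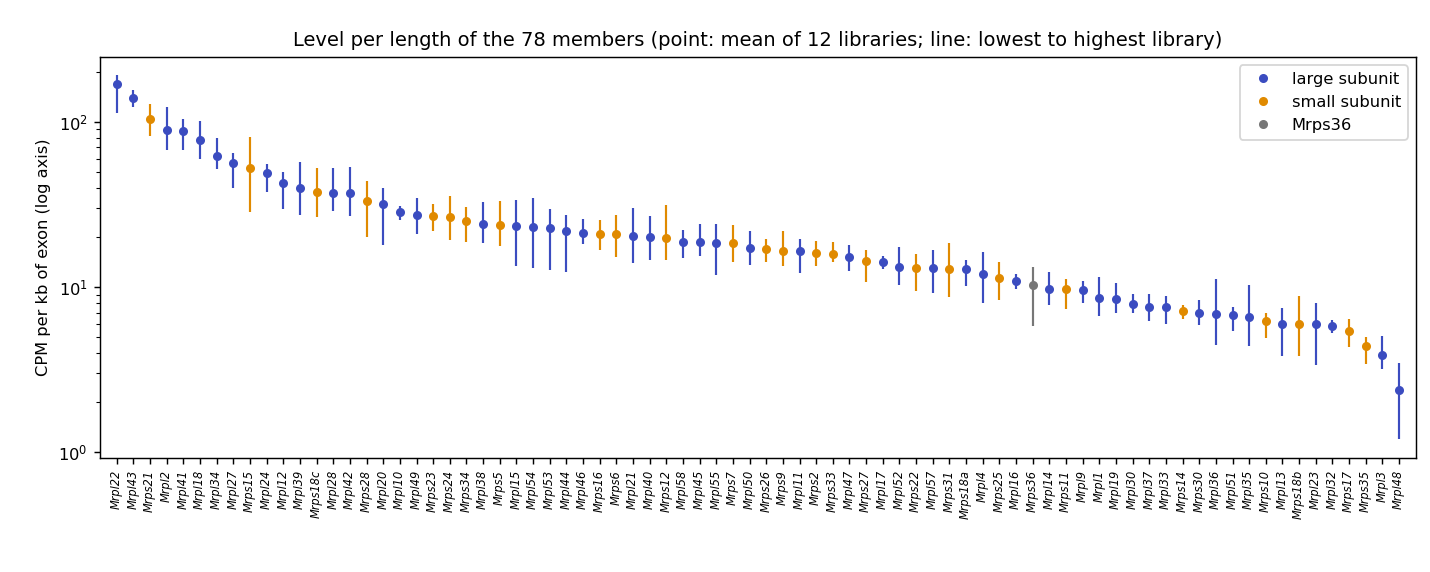
Level of each member per kilobase of exon (log axis), ordered from highest to lowest, with the mean of 12 libraries as a point and the range over libraries as a line. Large subunit genes (blue) and small subunit genes (orange) are spread over the whole order, from Mrpl22 at 169 to Mrpl48 at 2.37 CPM per kilobase.

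The members lie on 17 chromosomes, with 11 on chromosome 11, and all were found in the GENCODE M21 annotation. A protein-coding gene on the other strand started within 1000 bases upstream of 18 members (23.1%), beside 9.57% of 14170 protein-coding genes tested. Some neighbours moved with their member and others did not. Zfp661, 128 bases from Mrps5, was lower at day 6 by 1.15 on the log2 scale, and Sars2, the mitochondrial seryl-tRNA synthetase gene 172 bases from Mrps12, by 0.94. Hira, 175 bases from Mrpl40, was higher by 0.30 while Mrpl40 was lower by 0.75. Eme2, 29 bases from Mrps34, was higher by 2.18, 2.53 and 1.78 at days 2, 4 and 6.

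Genes with the course most like that of Mrpl15, by Pearson correlation of log2 CPM over the 12 libraries, were Rfc2 (r = 0.987), U2af2 (0.986), Eif5a (0.985), Eif2s2 (0.985) and Ddx39 (0.985). Those most like the median member were Psme3 (0.987), Rpl3l (0.983), Polr1e (0.983), Mrpl15 (0.982) and Me2 (0.982). These values are descriptions, since libraries of 1 day share their day.

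Of 5 genes for mitochondrial ribosomal proteins with other symbols, 2 were higher and 1 lower at day 2 than at day 0, and 1 was higher and 2 lower at day 6. Of all genes tested, 34.9% were higher and 33.2% lower at day 2, and 39.4% and 37.5% at day 6. From day 2 to day 4 all 5 were lower, with a median log2 change of -0.21, beside 24.8% of all genes tested. Ptcd3, a small subunit protein, went from 86.5 ± 2.94 to 44.6 ± 1.05 CPM (log2 -0.95), and Chchd1, also of the small subunit, from 82.2 ± 4.43 to 102 ± 6.13 CPM (log2 0.32). Dap3, a GTP-binding small subunit protein, had 56.0 ± 1.59 CPM at day 0 and 56.0 ± 1.97 CPM at day 6. Aurkaip1 was lower by 0.39.

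The factors that build and serve the ribosome held both directions. Of 27 genes for assembly and rRNA modification, 4 were higher and 10 lower (37%) at day 6, beside 39.4% and 37.5% of all genes tested, with a median log2 change of -0.07. The assembly GTPase genes Gtpbp10 and Mtg1 were lower by 0.76 and 0.95, and Rbfa, a small subunit maturation factor, by 0.71. These genes do not stand for their list, whose log2 changes ran from -0.95 to 1.37. Of 16 translation factors and mRNA-binding proteins, 2 were higher and 8 lower (median -0.24). Lrpprc, which stabilises mitochondrial mRNAs, was lower by 0.77, and the elongation factor genes Tsfm, Gfm1 and Tufm by 0.87, 0.65 and 0.30. Log2 changes of the 16 genes ran from -0.87 to 0.84.

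Of 20 genes for mitochondrial aminoacyl-tRNA synthesis, 4 were higher and 12 lower at day 6 (20% and 60%), beside 39.4% and 37.5% of all genes tested. Cars2, for cysteine, went from 25.7 ± 2.02 to 10.7 ± 1.19 CPM, Vars2, for valine, was lower by 0.49 on the log2 scale, and Sars2 as given above. Lars2, for leucine, went the other way, with 302 ± 11.4, 62.9 ± 3.37, 379 ± 40.2 and 763 ± 55.4 CPM at days 0, 2, 4 and 6. The share of Gm42418, a model on rRNA-like sequence, ran through 1.41 to 1.44%, 0.322 to 0.351%, 1.51 to 1.56% and 2.64 to 2.92% of counts on those days, and its part in the Lars2 value was not tested. Of 27 protein import genes, 6 were higher and 15 lower (22.2% and 55.6%). Tomm40, the outer membrane pore, was lower by 1.05 and the chaperone genes Hspa9 and Hspd1 by 0.76 and 0.70. Log2 changes of the 27 import genes ran from -1.05 to 0.52. Of 13 genes for mitochondrial DNA transcription and replication, 2 were higher and 8 lower (15.4% and 61.5%). Tfam, the packaging factor, was at 155 ± 3.51 CPM at day 0 and 101 ± 4.93 at day 6.

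The RNA of the organelle itself followed another course. The mitochondrial rRNAs mt-Rnr1 and mt-Rnr2, the partners of these proteins, were lower at day 2 by 1.38 and 0.76 on the log2 scale. At day 4 they were still below day 0, by 0.89 and 0.79, and their sum was at 44.7%, 55.3% and 92.2% of day 0 at days 2, 4 and 6. At day 6, mt-Rnr1 was at 350 ± 10.3 CPM, against 400 ± 6.09 at day 0, and mt-Rnr2 at 184 ± 9.14 against 180 ± 1.69. Of the 13 mitochondrially encoded mRNAs, 1 was higher and 7 lower at day 2 (7.69% and 53.8%), beside 34.9% and 33.2% of all genes tested. At day 6, 4 were higher and 3 lower (30.8% and 23.1%), beside 39.4% and 37.5%. The summed level of these mRNAs was 82.0%, 141% and 116% of day 0 at days 2, 4 and 6. All of these were measured in polyadenylated RNA, so a change in their tails cannot be told apart from a change in amount.

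The members were set beside the most similar gene groups. Of 83 cytosolic ribosomal protein genes, 2 were higher and 77 lower at day 6, beside 39.4% and 37.5% of all genes tested. The summed level of this group was 85.3%, 70.9% and 68.5% of day 0 at days 2, 4 and 6. From day 4 to day 6, 11 of its genes were higher and 28 lower (median -0.04), where 1 member was higher and 43 lower (median -0.20). Over all genes tested, 23.6% were higher and 19.3% lower on that step. Of 83 tested nuclear genes of oxidative phosphorylation, 9 were higher and 61 lower at day 6, with a summed level of 84.0%, 83% and 71.3% of day 0. The members were at 90.9%, 88.8% and 75.6%. The sum over all genes tested, which is set by the TMM factors, was at 91.2%, 91.6% and 93.0%. The differences between the groups were not tested.

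**Figure D5:**
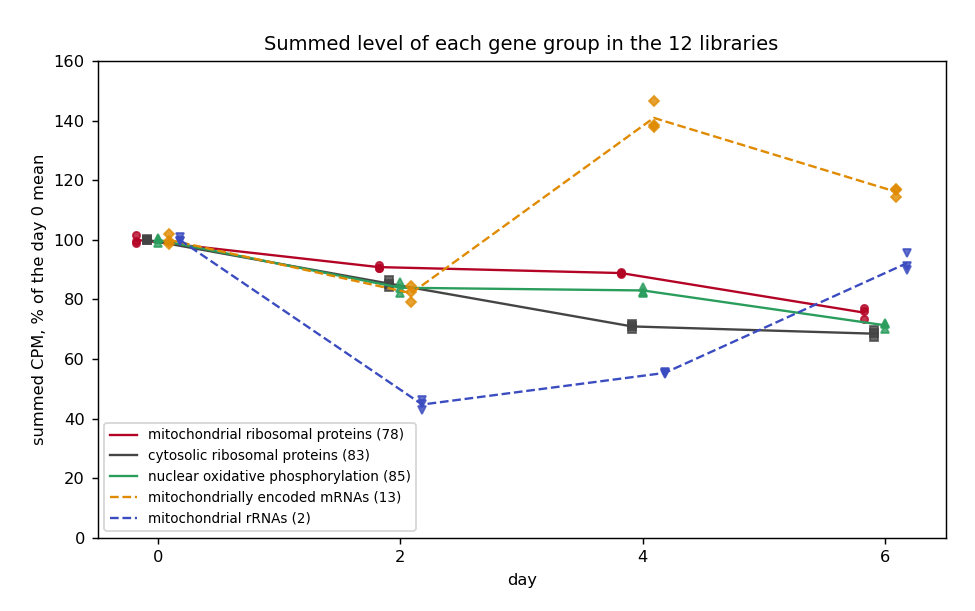
Summed CPM of 5 gene groups as a percentage of the day 0 mean, with points for libraries and lines through the means. The members (red) are at 88.8% at day 4 and 75.6% at day 6, where cytosolic ribosomal protein genes (dark grey) are at 70.9% and 68.5% and mitochondrially encoded mRNAs (orange) at 141% and 116%.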

How the data were processed

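Raw counts per gene of 12 polyadenylated RNA libraries were deposited by the authors. The mm10 genome, featureCounts 2.0.1 and HISAT2 2.1.0 are named per the submitters' processing notes, beside DESeq2 and FastQC 0.11.7, and strandedness and the treatment of reads with several positions are not given in the sources used here. All 78 members matched GENCODE M21 (GRCm38), which gave coordinates and exon lengths. Counts were fitted in R 4.3.3 with edgeR 4.0.16 (filterByExpr by day, TMM, robust quasi-likelihood fit, 1 coefficient per day), and two-sided p-values were Benjamini-Hochberg adjusted over all 16468 genes tested. The common coefficient of variation was 0.0415. Near copies were found with BLAST 2.17.0. The procedure was tested on simulated data in which few genes changed, so that test does not bear on the scaling of these libraries.

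The members and lists were chosen with earlier results of these data known. Named were the 6 largest rises and falls against day 0 and the 4 largest between later days, among called members whose libraries do not overlap. Added were members of known role, those highest and lowest per length, those with the smallest F-test p, and up to 4 genes of each other list. Some further members are named beyond this rule, chosen after their values were seen. Alternatives were other scalings, filters and tests (DESeq2 1.42.0, limma-voom with limma 3.58.1), a replicate block, a stricter threshold, libraries left out and library sizes without Gm42418 and mitochondrial genes.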

Additional observations from a re-analysis of the deposited data

How the results depend on the processing

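No member called in a comparison was called in the opposite direction under any other scaling, filter or test. In the comparisons with day 0, scaling by library size alone moved the member median more than any other setting. Under it the median log2 change of the members was 0.0664 at day 2 (reversed from -0.0656), -0.0237 at day 4 (from -0.1518) and -0.2902 at day 6 (from -0.3945) against day 0, and 15 instead of 9 members were higher at day 6. The median over all genes tested moved up as well, from 0.0173 to 0.1494, 0.0126 to 0.1405 and 0.0174 to 0.1214 on those days. A change of scaling moves all genes of a comparison by nearly the same amount. The gap between these medians was therefore bound to stay, and its staying is no test of it. With no filter on low counts the member medians against day 0 were -0.0144, -0.1039 and -0.357. With upper-quartile scaling the median was -0.4347 for day 6 against day 0 and -0.2323 for day 6 against day 4 (from -0.2033), and with a fit to the 6 libraries of the comparison the latter was -0.2316. The cause was not tested. By DESeq2, 31 of the 40 members called from day 2 to day 4 were called in the same direction (12 higher and 19 lower), and from day 4 to day 6, 38 of 44. Leaving out each library in turn gave medians from -0.0817 to -0.0378 for day 2 against day 0 (highest without replicate 3 of day 2), -0.4276 to -0.3792 for day 6 against day 0, and -0.0984 to -0.0549 for day 4 against day 2 (highest without replicate 3 of day 4, and -0.0559 without replicate 1 of day 2).

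Of single named members, Mrpl58 at day 6 turned to -0.0036 with upper-quartile scaling and was not called in either fit. Mrpl10 at day 6 became called there by the quasi-likelihood test of edgeR (adjusted p = 0.0325), and Mrps36 at day 6 lost its call with library size alone (adjusted p = 0.0741).

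Same-numbered replicates did not deviate together (correlations from -0.038 to 0.034 over 18 pairs, and 4 of 12 libraries were closest to their own number), so the numbers are not taken to pair the libraries. With a replicate block, 8 members were higher and 53 lower at day 6 than at day 0, and the counts of the other comparisons were those given above.

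The SE of the log2 change at day 6 was 0.13 for Mrpl14, at 8.31 CPM on day 0, and 0.06 for Mrpl15, at 272 CPM, but it did not follow the level alone, with 0.09 for Mrpl22, at 180 CPM, and 0.07 for Mrpl10, at 51.4 CPM. Mrps24, with uneven replicates, had an SE of 0.20. Changes smaller than these errors were not detectable in these libraries. Changes larger than 1 SE could go uncalled too, as for Mrpl10 at day 4 (log2 -0.15 ± 0.07).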

Other observations

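Mrpl23 lies next to an imprinted region, and some of its neighbours rose far more than it did. The genes named here were chosen after their values were seen. H19, an imprinted noncoding RNA 45457 bases from Mrpl23 on chromosome 7, had 6.27 ± 1.18 CPM at day 0, 27.7 ± 0.998 at day 2, 159 ± 4.08 at day 4 and 395 ± 13.1 at day 6 (SD, n = 3). Igf2, a growth factor gene 134130 bases away, went from 3.23 ± 0.298 to 957 ± 40.8 CPM over the same days. Tnnt3, a troponin gene nearby, was at 0.321 ± 0.168 CPM at day 0 and 16.3 ± 1.99 at day 6. Mrpl23 itself was at 17.6 ± 1.13, 30.2 ± 3.18, 37.9 ± 1.66 and 29.9 ± 2.13 CPM, and so peaked at day 4 while H19 and Igf2 were highest at day 6. Ctsd, the cathepsin D gene in the same neighbourhood, was at 313 ± 1.06 CPM at day 0 and 369 ± 2.59 at day 6.

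The pseudogene copies with the most counts followed their members. Mrpl48-ps was at 8.48 ± 0.680, 11.7 ± 0.725, 14.7 ± 1.33 and 12.5 ± 0.552 CPM at days 0, 2, 4 and 6, with its highest mean on the same day as Mrpl48. Mrpl23-ps1 was at 2.27 ± 0.717, 4.04 ± 0.500, 5.68 ± 1.21 and 4.69 ± 0.348 CPM. Gm13328, a copy of Mrps5, was lower at day 6 by 0.48 ± 0.10 on the log2 scale, where Mrps5 was lower by 0.78 ± 0.05. How many of these reads came from the members was not tested.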
